A study of Mus musculus with 10 samples.

Results

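Cd14 and 6 genes of Toll-like receptor signalling, namely Tlr2, Tlr4, Tlr7, Myd88, Cd180 and Ly86, were followed in mouse macrophages and microglia, the resident and infiltrating phagocytes of nervous tissue. The 7 genes were chosen by name and make up 7 of the 16620 gene entries in which a unique molecular identifier (UMI, 1 tagged transcript molecule) was found. The cells were 1168 droplet-captured single cells from mice of strain 129S1/SvlmJ, of both sexes and 10 weeks old. Injured mice had received an optic nerve crush, which severs the axons of retinal ganglion cells, at 8 weeks, 2 weeks before collection. The 4 groups were optic nerve after crush (libraries 1 and 3), uninjured optic nerve (libraries 2 and 4), retina after crush (4 samples, present as a pool of samples 1 and 2 and a pool of samples 3 and 4) and uninjured retina (libraries 5 and 6). All groups were labelled wildtype, the strain label also names an earlier age, and how the cells were enriched and how many animals stood behind a library are not given in the sources used here.

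Toll-like receptors are membrane proteins that recognise molecules of microbes and of damaged cells. TLR2 recognises lipoproteins and TLR4 recognises lipopolysaccharide at the cell surface, whereas TLR7 recognises single-stranded RNA inside endosomes. CD14 binds lipopolysaccharide and hands it to TLR4 with its partner MD-2, and MYD88 is the cytosolic adaptor through which all 3 receptors signal towards NF-kB. CD180 (RP105) is a relative of TLR4 that lacks the signalling domain and pairs with MD-1, the product of Ly86, as TLR4 pairs with MD-2.

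The genes lie on 6 chromosomes of the mouse genome (GENCODE M21 annotation, build GRCm38), and all 7 are protein coding. Tlr2 is at chr3:83836272-83841767 on the minus strand, Tlr4 at chr4:66827584-66930284 on the plus strand, Tlr7 at chrX:167304929-167330558 on the minus strand and Myd88 at chr9:119335934-119341411 on the minus strand. Cd180, at chr13:102693558-102739629, and Ly86, at chr13:37345208-37419036, are both on the plus strand of chromosome 13. Cd180 overlaps Mast4 on the other strand, and Myd88 overlaps Slc22a14 on its own strand and Acaa1a on the other. Whether reads were counted by strand is not given in the sources used here. Whether any reads of these overlapping genes entered the counts of Cd180 and Myd88 was not tested. The other 5 genes overlap no annotated gene.

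RefSeq promoter sequences (build GRCm38.p6) were at hand for 4 of the 7 genes. Those of Cd180 and Ly86 are shown because the levels of both genes were lower in injured than in uninjured retina and their products form 1 complex. The windows searched are the 250 bases before the RefSeq start, 5′ to 3′ on the plus strand, and for Cd180 the first of its listed starts was used. The line for Cd180 gives its whole window, chr13:102693297-102693546. The RefSeq start of Ly86 lies inside its first GENCODE exon, which holds the last 137 bases of its window, so the line for Ly86 gives the 113 bases before that exon, chr13:37345095-37345207. Capitals mark matches on either strand to GGAAGT, a core recognised by ETS-family factors such as PU.1, or to TATAAA, the TATA box.
Cd180: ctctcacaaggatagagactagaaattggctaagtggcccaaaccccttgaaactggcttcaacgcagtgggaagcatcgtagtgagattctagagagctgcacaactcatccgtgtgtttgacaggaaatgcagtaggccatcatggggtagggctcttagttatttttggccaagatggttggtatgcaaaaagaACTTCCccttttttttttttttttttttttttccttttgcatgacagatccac
Ly86: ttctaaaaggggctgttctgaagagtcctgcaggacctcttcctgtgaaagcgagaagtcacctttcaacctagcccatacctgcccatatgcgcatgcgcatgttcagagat
The Cd180 window held 1 match to GGAAGT, on the minus strand 53 bases before the start, and this motif was found in 19.7% of the 32851 promoter windows of this length. The Ly86 window held no match to it, and neither window held TATAAA, which was found in 12.4% of the windows. A match describes letters in the window and not a bound site.

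Levels are in CPM, the share of a library's UMIs that a gene took, on the usual fixed scale. Depth set their precision. Injured optic nerve held 146 cells with 318715 UMIs and 682 cells with 5234954 UMIs, and uninjured optic nerve 103 cells with 351333 UMIs and 28 cells with 84121 UMIs. Injured retina held 109 cells with 1420930 UMIs and 57 cells with 310892 UMIs, and uninjured retina 31 cells with 142787 UMIs and 12 cells with 56838 UMIs. Every library held UMIs of at least 11 of 12 microglial markers chosen by name, with summed levels of 6768 and 7528 CPM in injured optic nerve, 4617 and 9011 CPM in uninjured optic nerve, 5534 and 5722 CPM in injured retina and 14252 and 17612 CPM in uninjured retina. Cells with T-cell markers made up 22 of 109 and 24 of 57 cells of the injured retina pools, against 0 of 31 and 0 of 12 cells in uninjured retina. All 959 optic nerve cells held at least 1 Cd14 UMI, against 147 of 209 retina cells. Every optic nerve value given here, for Cd14, for the other genes and for cell classes, rests on such cells. Oligodendrocyte-like cells made up 14 of 146 and 48 of 682 cells in injured optic nerve, against 28 of 103 and 4 of 28 cells in uninjured optic nerve. The p-values rest on the spread between the 2 libraries of each group, which may be partly technical. In the main limma fit this spread was pooled over all 4 groups and moderated over genes. A limma comparison of 2 groups thus also draws on the spread of the other groups. Injury in retina was tested with edgeR, which gives log2 fold changes. The other comparisons were tested with limma on the mean over cells of ln(1 + 10000 × UMI share of the cell), and their effects are differences of that mean. A gene was called at a Benjamini-Hochberg adjusted p under 0.05 over all genes tested.

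Cd180 and Ly86 were the 2 of the 7 genes that changed with crush in the retina, and both fell. Cd180, the receptor-like chain, was measured at 41.5 CPM (59 UMIs) and 64.3 CPM (20 UMIs) in the injured retina pools, against 196 CPM (28 UMIs) and 369 CPM (21 UMIs) in uninjured retina. Ly86, which encodes its partner MD-1, was measured at 324 and 399 CPM in injured retina, against 1772 and 1830 CPM in uninjured retina. For both genes the injured and uninjured libraries did not overlap. The share of all genes without overlap was not counted, so this and later statements on overlap only describe the values. The log2 fold change was -2.38 ± 0.39 for Cd180 (SE, adjusted p = 0.00192, edgeR), a 5.22-fold lower level. For Ly86 it was -2.30 ± 0.27 (SE, adjusted p = 0.000250, edgeR), a 4.93-fold lower level. In this comparison 19.7% of the 3312 genes tested were called, 9.72% lower and 9.99% higher, and 6 of the 7 genes could be tested.

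Several other features of the libraries moved with this difference. Without the T-, oligodendrocyte- and endothelial-like cells the log2 fold changes were -2.15 for Cd180 (adjusted p = 0.00314, edgeR) and -2.08 for Ly86 (adjusted p = 0.000216, edgeR). The summed level of 16 immediate early genes, transcripts that rise within minutes of a stimulus, was 18045 and 21213 CPM in injured retina, against 63675 and 63232 CPM in uninjured retina, and 14 of the 16 were called lower. The summed microglial markers, given above, were also lower in both injured retina pools. Monocyte markers summed to 472 and 380 CPM in injured retina, with 5 and 3 of 6 detected, against 7.0 and 0 CPM in uninjured retina, with 1 and 0 of 6 detected. Injured and uninjured retina cells also fell into different clusters. Cluster 1 held 84 of 109 and 33 of 57 injured retina cells and no uninjured cell, whereas the microglia-like cluster held 25 of 31 and 12 of 12 uninjured retina cells and no injured cell. Cluster 1 was led by genes that include Hsph1, Hspa1b, Bag3, Hspa1a, Hsp90aa1 and Dnajb1, which encode chaperones or co-chaperones of the heat-shock response. These 6 genes, chosen after their values were seen, summed to 20362 and 20396 CPM in injured retina, against 4489 and 3906 CPM in uninjured retina. In optic nerve they summed to 558 and 416 CPM after crush, against 4998 and 3400 CPM without injury. The part of these differences in the result for Cd180 and Ly86 was not tested.

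The shares of cells with a UMI of each gene were as follows. A Cd180 UMI was found in 23.9% (95% exact Clopper-Pearson interval 16.2 to 33.0%) and 17.5% (8.75 to 29.9%) of injured retina cells, against 58.1% (39.1 to 75.5%) and 58.3% (27.7 to 84.8%) of uninjured retina cells. When each cell was thinned to 1000 UMIs the expected shares were 3.49% and 3.03% in injured retina, against 19.7% and 29.4% in uninjured retina. For Ly86 the shares were 74.3% and 50.9% in injured retina, against 96.8% and 100% in uninjured retina, and after thinning 23.1% and 20.9% in injured retina, against 78.6% and 79.2% in uninjured retina. T-like cells were part of these injured retina shares. Without the T-, oligodendrocyte- and endothelial-like cells the unthinned Ly86 shares were 93.1% and 87.9% in injured retina, against 96.7% and 100% in uninjured retina. For Cd180 they were then 29.9% and 30.3% in injured retina, against 56.7% and 58.3% in uninjured retina. T-like cells of injured retina, which should lack both genes, held 0 UMIs of either in 46 cells at a median of 2496 UMIs a cell, which allows a share of up to 6.52%. The other 120 injured retina cells had a median of 12921 UMIs. Intervals and limits cover counting error only.

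Most cells with Cd180 also held Ly86, but not the reverse. Of the 252 cells with a Cd180 UMI, 223 also held a Ly86 UMI (88.5%), compared with 54.5% of the cells without one. Ly86 was found in 722 cells, of which 30.9% held a Cd180 UMI. The cells with a Cd180 UMI were also deeper, with a median of 12180 UMIs, against 1763 UMIs in the others. In uninjured retina 17 of 18 and 7 of 7 cells with Cd180 held Ly86, and so did all of the cells without Cd180.

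Tlr2, the lipoprotein receptor, lay at 343 and 170 CPM in injured retina, against 476 and 633 CPM in uninjured retina. The groups did not overlap in CPM. In mean ln they overlapped, at 0.98 and 0.46 in injured retina, against 0.95 and 1.16 in uninjured retina. The log2 fold change of -1.01 ± 0.34 missed the threshold (SE, adjusted p = 0.0553, edgeR). Without the first injured retina pool this fold change was -1.57, and without the second it was -0.48. Cd14 lay at 661 and 605 CPM in injured retina, against 497 and 475 CPM in uninjured retina, with a log2 fold change of 0.39 ± 0.27 (SE, adjusted p = 0.324, edgeR). Cd14 and Tlr2, both lipid-sensing molecules of the cell surface, had fold changes of opposite sign, and neither was called. By limma on the ln scale the difference for Cd14 was -0.08.

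Tlr7, Tlr4 and Myd88 were not called in retina. Tlr7, the endosomal RNA receptor, was found at 122 and 74.0 CPM in injured retina (173 and 23 UMIs), against 147 and 0 CPM in uninjured retina (21 and 0 UMIs). The 0 was 0 UMIs in 12 cells, which allows up to 52.8 CPM. Its log2 fold change was 0.06 ± 0.64 (SE, adjusted p = 0.967, edgeR), and it passed when uninjured retina library 5 was left out, which sets the pools against a library with 0 UMIs. Myd88, the adaptor, was at 26.0 and 51.5 CPM in injured retina, against 0 and 52.8 CPM in uninjured retina, where 0 UMIs in 31 cells allow up to 21.0 CPM. Its log2 fold change was 1.09 ± 1.0 (SE, adjusted p = 0.470, edgeR). Tlr4, the lipopolysaccharide receptor, was too low for the filter, with 8 and 6 UMIs in injured retina, against 4 and 1 UMIs in uninjured retina. For these 3 genes the groups overlapped.

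**Figure D1:**
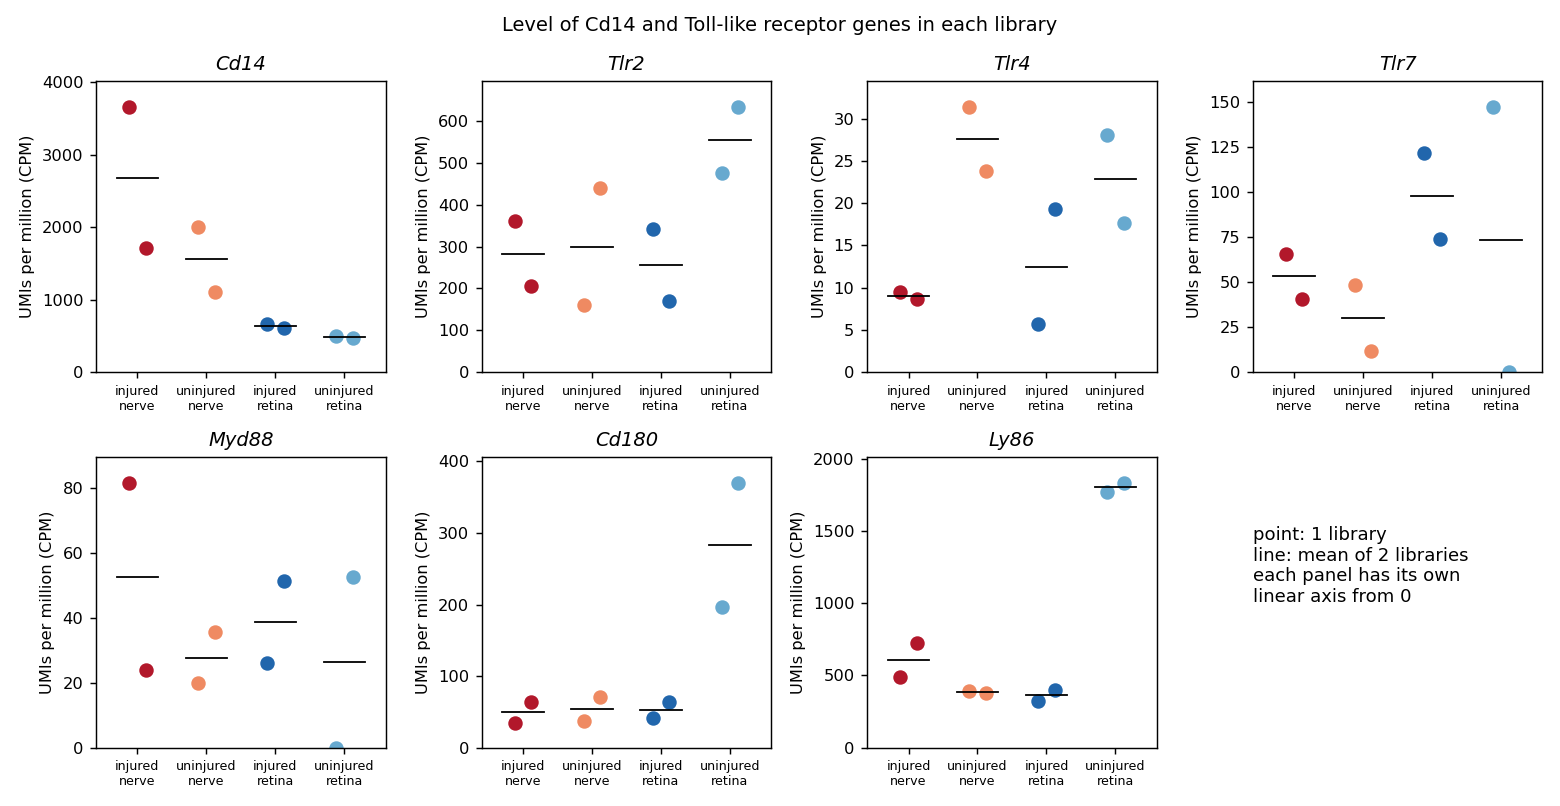
Level of each gene in every library, in CPM on a linear axis from 0 that differs between panels; each point is a library and each line the mean of the 2 libraries of a group. Cd180 and Ly86 stand highest in uninjured retina (196 and 369 CPM, 1772 and 1830 CPM). Cd14 stands higher in all 4 optic nerve libraries, where every cell held Cd14, than in retina.

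None of the 7 genes was called after crush in the optic nerve (0 of 7, against 0.419% of 7390 genes called higher or lower by limma). At an unadjusted p under 0.05 limma gave 1 of the 7, against 574 of all 7390 genes. By edgeR on recovered counts it was 3, against 856 of 7390, and by DESeq2 0, against 448 of 7390. None of these tools called any of the 7 after adjustment. Cd14 was at 3649 and 1705 CPM in injured optic nerve, against 2007 and 1106 CPM in uninjured optic nerve, and these ranges overlapped. Its mean ln value was 2.85 ± 0.36 in injured and 2.57 ± 0.03 in uninjured optic nerve (SD, n = 2 libraries each), a difference of 0.28 ± 0.28 (SE, adjusted p = 0.956, limma). Without injured optic nerve library 1 this difference was 0.02.

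Tlr4 had the smallest p of the 7 genes in the nerve. Its level was 9.41 and 8.60 CPM in injured optic nerve (3 and 45 UMIs), against 31.3 and 23.8 CPM in uninjured optic nerve (11 and 2 UMIs). The groups did not overlap, but the difference of -0.11 ± 0.04 in mean ln missed the threshold (SE, adjusted p = 0.523, limma). Ly86 was at 489 and 723 CPM in injured optic nerve, against 393 and 380 CPM in uninjured optic nerve, with a difference in mean ln of 0.16 ± 0.27 (SE, adjusted p = 0.996, limma). Cd180 was at 34.5 and 64.4 CPM in injured optic nerve, against 37.0 and 71.3 CPM in uninjured optic nerve, with a difference of -0.04 ± 0.11 (SE, adjusted p = 0.999, limma). Ly86 thus had non-overlapping groups in CPM, with the injured libraries higher. In mean ln its groups overlapped, at 0.96 and 1.48 in injured optic nerve, against 0.85 and 1.28 in uninjured optic nerve. Without the T-, oligodendrocyte- and endothelial-like cells the optic nerve groups overlapped for Ly86, at 543 and 743 CPM in injured optic nerve, against 489 and 640 CPM in uninjured optic nerve.
Tlr2 was at 361 and 206 CPM in injured optic nerve, against 159 and 440 CPM in uninjured optic nerve. Tlr7 was at 65.9 and 40.5 CPM in injured optic nerve, against 48.4 and 11.9 CPM in uninjured optic nerve, the last being 1 UMI. Myd88 was at 81.6 and 23.9 CPM in injured optic nerve, against 19.9 and 35.7 CPM in uninjured optic nerve. In these 3 genes the libraries of injured and of uninjured optic nerve overlapped.

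The injury effect itself differed between the tissues for Cd180 and Ly86. The effect in optic nerve minus that in retina was 0.76 ± 0.16 in mean ln for Cd180 (SE, adjusted p = 0.0210, limma) and 1.96 ± 0.38 for Ly86 (SE, adjusted p = 0.0140, limma). In mean ln, Cd180 was at 0.17 in injured and 0.21 in uninjured optic nerve, and at 0.18 in injured and 0.98 in uninjured retina. Ly86 was at 1.22 in injured and 1.06 in uninjured optic nerve, and at 0.98 in injured and 2.79 in uninjured retina. Over all genes 3.59% were called, 1.01% higher and 2.57% lower, with 75 higher and 190 lower. By limma on log2(CPM + 10) the split was 38 higher and 75 lower, and by edgeR on recovered counts 47 higher and 56 lower. The calls did not hold without the T-, oligodendrocyte- and endothelial-like cells, where the effects were 0.61 for Cd180 (adjusted p = 0.0805, limma) and 1.26 for Ly86 (adjusted p = 0.101, limma). They were also lost for both genes after thinning to 1000 UMIs (0.34 and 2.16), with no filter on low genes (adjusted p = 0.0774 and 0.0652, limma), without the second injured retina pool (0.75 and 1.86), without injured optic nerve library 3 (0.68 and 1.70) and without uninjured optic nerve library 2 (0.69 and 1.75). The Cd180 call alone was lost by edgeR (adjusted p = 0.0701), by DESeq2 (adjusted p = 0.0736), on log2(CPM + 10) (adjusted p = 0.145, limma) and on that scale without those cells (adjusted p = 0.402, limma), without the first injured retina pool (0.77) and without uninjured optic nerve library 4 (0.83).

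**Figure D2:**
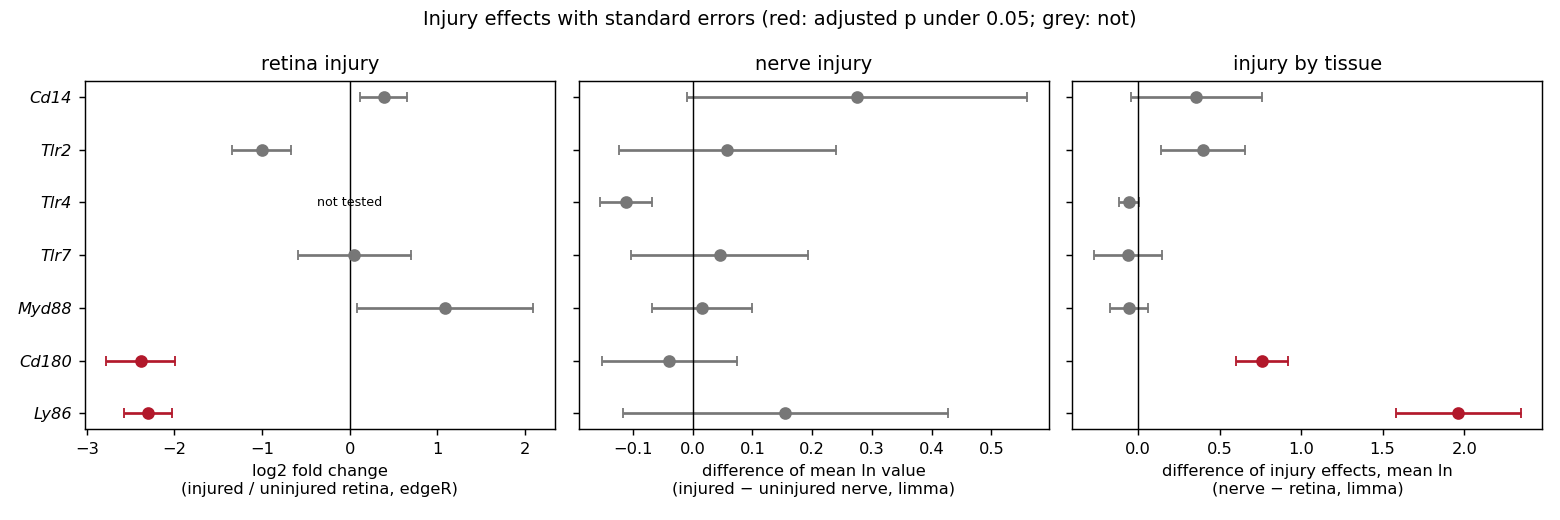
Effect of crush on each gene with its standard error, in retina as a log2 fold change (left), in optic nerve as a difference of mean ln values (middle), and the difference between these effects in mean ln (right); red points passed an adjusted p of 0.05. Cd180 and Ly86 are the red points, at -2.38 and -2.30 in retina and at 0.76 and 1.96 in the difference between tissues, and no gene is red in optic nerve.

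Without injury, Cd14 was higher and Cd180 and Ly86 were lower in optic nerve than in retina. The Cd14 contrasts set optic nerve cells that all held Cd14 against retina cells of which 62 of 209 held none. Their p-values cannot separate a tissue difference from that. The optic nerve values of Cd180 and Ly86 also come only from cells with Cd14. The difference in mean ln, uninjured optic nerve minus uninjured retina, was 1.22 ± 0.28 for Cd14 (SE, adjusted p = 0.0170, limma), -0.78 ± 0.11 for Cd180 (SE, adjusted p = 0.000720, limma) and -1.73 ± 0.27 for Ly86 (SE, adjusted p = 0.00127, limma). For each of the 3 genes the libraries of the tissues did not overlap. Border macrophage markers moved with this contrast, at a summed 4950 and 808 CPM in uninjured optic nerve (10 and 9 of 10 detected), against 231 and 141 CPM in uninjured retina (2 and 1 of 10 detected). Border macrophage-like cells made up 43 of 103 and 1 of 28 cells in uninjured optic nerve, against 4 of 31 and 0 of 12 in uninjured retina. Their part in the tissue differences was not tested. In this comparison 7.62% of genes were called, and 1.75% of genes were called higher and 5.87% lower (129 and 434 genes). On log2(CPM + 10) the split was 316 higher and 140 lower, and the 3 genes kept their direction and call there. After crush, Cd14 was again higher in optic nerve than in retina, with a difference of 1.58 ± 0.28 (SE, adjusted p = 0.00453, limma), where 9.53% of genes were called, 0.338% higher and 9.19% lower (25 and 679 genes, against 206 and 252 by edgeR). Border macrophage markers summed there to 1566 and 844 CPM in injured optic nerve, against 55.6 and 86.8 CPM in injured retina. Cd180 and Ly86 showed no call there, with differences of -0.02 ± 0.11 and 0.24 ± 0.27 in mean ln (SE, adjusted p = 0.948 and 0.644, limma). The Cd14 call between uninjured tissues was lost by edgeR (log2 fold change 1.72, adjusted p = 0.0529), after thinning to 1000 UMIs (1.03 in mean ln), and when uninjured retina library 6 (1.18) or uninjured optic nerve library 2 (1.20) or 4 (1.24) was left out. After crush the Cd14 call was lost in 3 separate settings. These were thinning of all libraries (1.53 in mean ln), leaving out the second injured retina pool (1.33), and log2(CPM + 10) without the T-, oligodendrocyte- and endothelial-like cells (adjusted p = 0.0767, limma). The Cd180 call between uninjured tissues was lost under thinning (-0.34) and on log2(CPM + 10) without those cells (adjusted p = 0.122, limma). These 2 tissue comparisons and the injury comparisons share libraries and are not independent of each other.

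Cd14, a gene of chromosome 18 (minus strand), had values in the optic nerve with a property that no other gene shared. A Cd14 UMI was present in 959 of 959 optic nerve cells, and Cd14 was the only gene of the table found in every one of them. The next gene, Fth1, which encodes the ferritin heavy chain, was found in 953 cells (99.4%). In retina Cd14 was found in 147 of 209 cells (70.3%), and 62 cells had none. The optic nerve cells with a Cd14 UMI included all 296 cells under 1000 UMIs, 94 of 94 oligodendrocyte-like cells, 8 of 8 endothelial-like cells and the single T-like cell. Many held the least possible, with exactly 1 Cd14 UMI in 373 of the 959 cells (38.9%) and in 85.1% of the oligodendrocyte-like cells.
The labels state no selection of cells by Cd14. As deposited, the optic nerve cells hold no cell without this transcript, so their Cd14 share is 100% in every library. Their Cd14 level, with both tissue contrasts for Cd14, is that of cells with at least 1 UMI. The optic nerve levels of the other genes and the shares of cell classes come from the same cells. The part of this in the tissue and injury differences of Cd180 and Ly86 was not tested. Whether cells were chosen by Cd14 was not tested.

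Cd14 levels were also taken in deep cells and beyond the first UMI of a cell, still among optic nerve cells that all held Cd14. Among cells with at least 5000 UMIs, the Cd14 level was 5117 and 1754 CPM in injured optic nerve (17 and 224 cells), against 681 and 676 CPM in injured retina (94 and 22 cells). In uninjured tissue it was 2378 and 854 CPM in optic nerve (21 and 4 cells), against 683 and 520 CPM in retina (8 and 5 cells). In such deep cells none of the 266 optic nerve cells and 15 of the 129 retina cells lacked Cd14. Counting only UMIs beyond the first in each cell, the level was 3191 and 1574 CPM in injured optic nerve, against 602 and 508 CPM in injured retina. By the same count it was 1713 and 773 CPM in uninjured optic nerve, against 329 and 317 CPM in uninjured retina. In both counts the optic nerve libraries stood above those of retina with the same injury state.

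**Figure D3:**
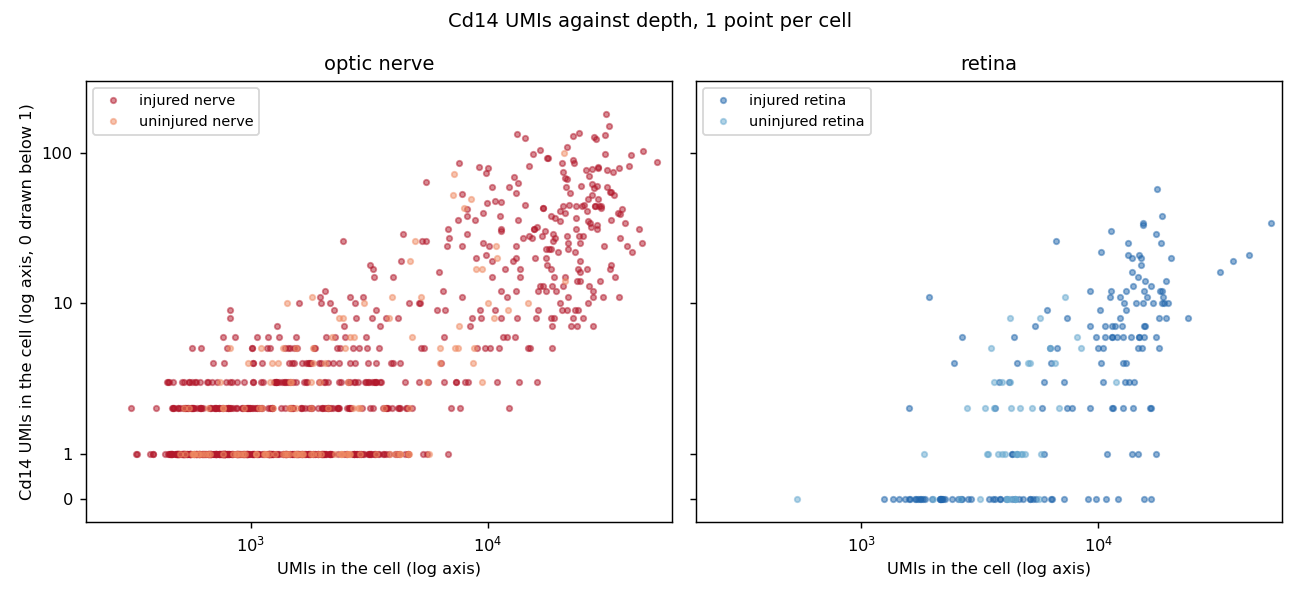
Cd14 UMIs in each cell (vertical log axis, with 0 drawn below 1) against all UMIs of that cell (horizontal log axis), for optic nerve (left) and retina (right), 1 point per cell and colour by injury. No optic nerve point lies on the 0 line, where 62 of the 209 retina cells lie, and 373 optic nerve cells lie at 1.

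Clusters of cells, built from the 2000 most variable genes of these same cells and so used for description only, differed in these genes. The border macrophage-like cluster of 84 cells was led by Ccl7, with Mrc1, F13a1, Ccl2 and Stab1 among its 10 leading genes. It held Cd14 at 3712 CPM, Tlr4 at 29.0 CPM and Cd180 at 16.6 CPM. The microglia-like cluster of 65 cells, led by P2ry12 and Tmem119 among others, held Cd14 at 699 CPM, Cd180 at 249 CPM and Ly86 at 1592 CPM, and all of its cells came from uninjured tissue. Cluster 10, with 29 cells led by Gpr84 and Cxcl10, held Cd14 at 3550 CPM, Tlr2 at 527 CPM and 0 UMIs of Cd180, which allows up to 105 CPM, and 26 of its 29 cells came from injured optic nerve library 1. Oligodendrocyte-like cells held Ly86 at 70.3 CPM and Tlr2 at 60.3 CPM. T-like cells of injured retina held 0 UMIs of 6 of the 7 genes, each of which allows up to 18.7 CPM, and held Myd88 at 31.2 CPM (5 UMIs), close to the 30.5 CPM of the other injured retina cells.

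Within the microglia-like cluster the uninjured tissues could be set side by side. Ly86 was at 1147 and 603 CPM in microglia-like cells of uninjured optic nerve, against 1899 and 1830 CPM in those of uninjured retina. Cd180 was at 170 and 161 CPM in optic nerve (8 and 4 UMIs), against 240 and 369 CPM in retina (25 and 21 UMIs). Cd14 was at 1019 and 1647 CPM in optic nerve, against 451 and 475 CPM in retina. All 3 genes kept the order seen in whole libraries, and with 17 and 11 optic nerve cells and 25 and 12 retina cells no test was made. A Cd14 UMI was present in all 28 of these optic nerve cells, against 27 of 37 in retina. The order for Cd14 is therefore no separate check of the tissue difference.

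**Figure D4:**
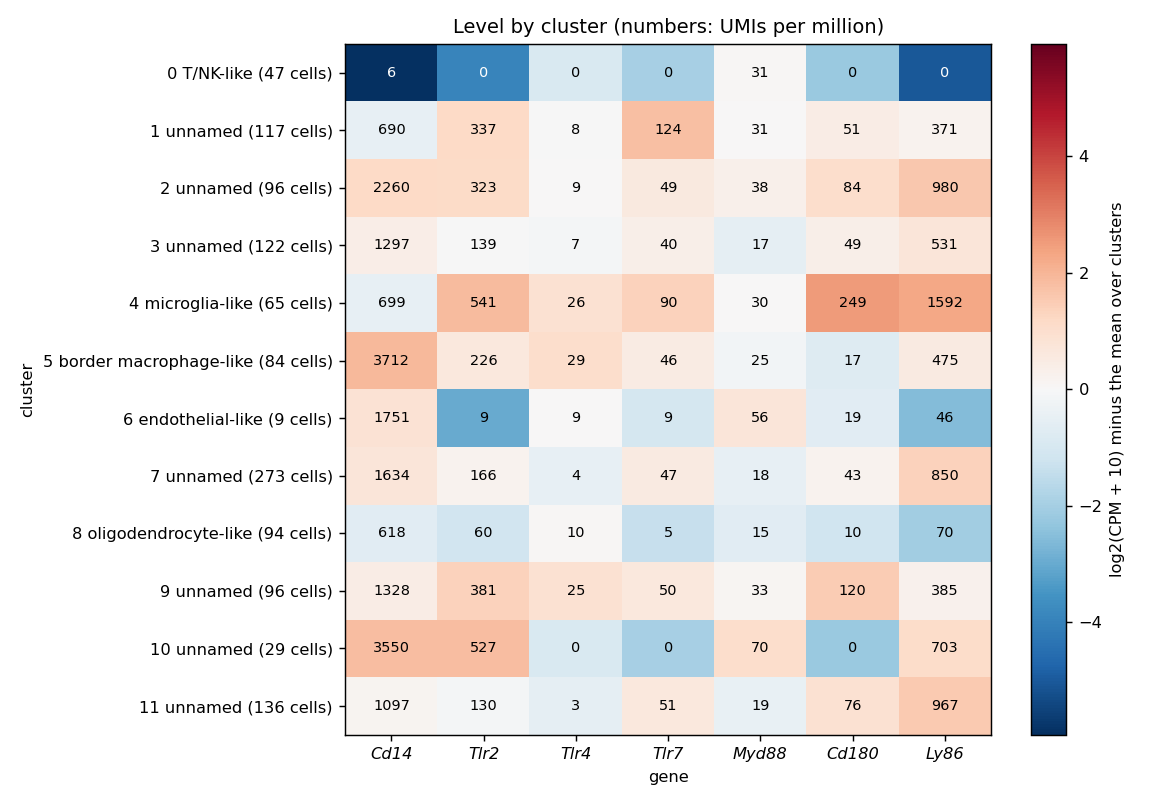
Level of each gene in the 12 clusters, printed in CPM, with colour for log2(CPM + 10) minus the gene's mean over clusters. Cd14 reaches 3712 CPM in the border macrophage-like cluster and 3550 CPM in cluster 10, whereas Cd180 and Ly86 reach 249 and 1592 CPM in the microglia-like cluster.

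The other genes of the pathway were counted in lists chosen by name. Of 9 further Toll-like receptors, 2 passed the filters of the retina test, and Tlr3, the receptor of double-stranded RNA, was called lower after crush at 15.5 and 6.43 CPM in injured retina, against 49.0 and 52.8 CPM in uninjured retina (log2 fold change -1.90 ± 0.56, SE, adjusted p = 0.0369, edgeR). Of 6 accessory and trafficking genes 3 were tested, and Unc93b1, which carries endosomal receptors such as TLR3 and TLR7 to their compartment, was called lower (-0.82 ± 0.25, SE, adjusted p = 0.0431, edgeR). None of the 7 tested adaptors, kinases and ligases was called. Of 6 tested transcription factors 1 was called lower, Irf5, which acts downstream of MYD88 (-1.17 ± 0.34, SE, adjusted p = 0.0319, edgeR). Over all genes 19.7% were called and 9.72% were called lower. A single call in lists this short is no result about the list.

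Inhibitors and target genes of the pathway were called in 1 direction in retina. Of 7 tested negative regulators 3 were called lower in injured retina and none higher, against 9.72% of all genes called lower, namely Nfkbib, Nfkbiz and Nfkbia, which encode proteins of the IkB family. Nfkbia lay at 1710 and 994 CPM in injured retina, against 3292 and 3044 CPM in uninjured retina. Of 10 tested genes that Toll-like receptors are known to induce, 7 were called lower and none higher, where 9.72% of all genes were called lower, and their median log2 fold change was -1.85, against 0.07 over all 3312 genes. Tnf, a principal inflammatory cytokine, was at 175 and 106 CPM in injured retina, against 1268 and 1302 CPM in uninjured retina (log2 fold change -3.11 ± 0.31, SE, adjusted p = 9.68e-05, edgeR). Ccl3, a chemokine, was at 1980 and 1885 CPM in injured retina, against 10281 and 6439 CPM in uninjured retina. Il1a and Ccl4 also fell, with log2 fold changes of -1.88 and -1.81. Without the T-, oligodendrocyte- and endothelial-like cells 7 of the 10 target genes and 4 of 6 tested negative regulators were called lower, against 288 of all 2968 genes. The immediate early genes moved in the same direction in these libraries, with the summed levels given above, and their part in these counts was not tested.

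In optic nerve after crush none of the 48 tested genes of these 6 lists was called by limma, against 31 of 7390 genes in all. Between uninjured tissues, 4 of 11 tested target genes and 5 of 10 tested negative regulators were called lower in optic nerve and none higher, against 5.87% of all genes called lower. The split of calls over all genes turned to more higher than lower on log2(CPM + 10), as given above. The genes called lower included Tnf (-1.73 in mean ln) and Nfkbia (-1.83 in mean ln), while 15 of 16 immediate early genes were also called lower there. For a difference in the injury effect between tissues, 2 of the 48 tested genes of the 6 lists were called, both higher. Over all genes 3.59% were called there and 1.01% were called higher. The 2 genes were Tnf and Ccl3 (1.44 and 1.99 in mean ln, adjusted p = 0.00969 and 0.0237, limma). So few calls are no result about the lists.

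Genes whose levels ran most like each of the 7 over the 8 libraries were found by the root-mean-square difference of centred log2(CPM + 10) profiles. For Ly86 they were Abi3 (0.28) and Nptn (0.33), and for Cd180 they were Scoc (0.28) and Slc46a1 (0.30). For Cd14 the nearest were Tmbim1 (0.32) and Stx6 (0.47), and for Tlr2 they were Mul1 (0.25) and Pdha1 (0.25). Tlr4 had Ube2w (0.17) and Sumo3 (0.24), Tlr7 had Tomm6 (0.47) and H2-M3 (0.58), and Myd88 had Jak2 (0.37) and Clock (0.40). The search covered 4211 genes at a mean of at least 30 CPM, and the 8 libraries share their depth differences across genes. The profiles themselves spread by an SD of 0.48 for Tlr4 to 1.24 for Tlr7 in the same unit.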

How the data were processed

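Single cells were captured with 10x Genomics v2 chemistry and sequenced, and per the submitters' processing notes reads were processed with bcl2fastq 2.17.1.14, Cell Ranger 1.3 (build mm10) and Seurat 4.0.3. Cells with 200 to 6500 genes were kept per the labels. The authors deposited raw UMI counts for the 209 retina cells. For the 959 optic nerve cells the authors deposited natural log (ln) values, ln(1 + 10000 × UMIs / total), from which whole UMI counts were recovered for 100% of the 1374534 values above 0 (tolerance 0.01). The table pools the 4 injured retina samples in pairs, so 8 libraries were the replicates, 2 a group. Uninjured retina holds no UMI after entry 27998 of 52181, a difference in annotation or merging that coincides with injury in retina; all 7 genes lie before it.

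Retina injury was tested with edgeR 4.0.16 (quasi-likelihood, TMM, filterByExpr, 3312 genes) on summed counts. The other comparisons used limma 3.58.1 (trend) on mean ln values in all 8 libraries, for 7390 genes, each detected in retina and in nerve and seen on average over libraries in at least 5% of cells. In data simulated for these fits, edgeR recovered 84.5% of 200 genes changed 8-fold and limma 91% of 200 genes changed by 0.8. The edgeR simulation used a fixed spread that was not estimated from these libraries. Smaller changes, such as those of the 7 genes after crush in optic nerve, were not simulated. Clusters came from scanpy 1.11.5, with 2000 variable genes, 15 neighbours in 30 components and a Leiden resolution of 0.8 (chosen after a lower one had mixed endothelial and microglial cells). A name required 2 markers within the top 10 and 3 within the top 50 genes of a cluster, and the other clusters stayed unnamed, so shares may differ from the authors' own names. No doublet caller was run, and 2 barcodes occurred in both injured optic nerve libraries. The alternatives were DESeq2 1.42.0, other scalings and filters, thinning to 1000 UMIs (297 shallower cells left out, 296 of them from optic nerve), leaving out cell classes, and leaving out each library. Named pathway genes were at most 4 called genes with the smallest p per list and comparison, and the 7 genes and all lists were chosen with earlier results of these data known.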

Additional observations from a re-analysis of the deposited data

Results flagged for a closer look

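The change with crush differed between optic nerve and retina for Cd180 and Ly86, by the test of the difference itself (limma, adjusted p = 0.0210 and 0.0140). The difference, optic nerve minus retina, was 0.76 in mean ln for Cd180 and 1.96 for Ly86. In retina both injured libraries lay below both uninjured libraries for each gene. In optic nerve the libraries of injured and uninjured nerve overlapped for Cd180. For Ly86 they overlapped in mean ln (0.96 and 1.48 in injured, against 0.85 and 1.28 in uninjured optic nerve). In CPM both injured libraries lay above both uninjured libraries for Ly86. That did not hold without the T-, oligodendrocyte- and endothelial-like cells (543 and 743 CPM in injured, against 489 and 640 CPM in uninjured optic nerve). In mean ln, neither gene was called without the T-, oligodendrocyte- and endothelial-like cells (adjusted p = 0.0805 for Cd180 and 0.101 for Ly86, limma). Nor was either called after thinning or with no filter on low genes. The same held without the second injured retina pool, injured optic nerve library 3 or uninjured optic nerve library 2. By edgeR, DESeq2 and limma on log2(CPM + 10) Ly86 was called and Cd180 was not. On log2(CPM + 10) without those cells Ly86 was also called and Cd180 was not. Uninjured retina, at 31 and 12 cells, had the fewest cells of the 4 groups. All optic nerve cells held a Cd14 UMI, unlike those of retina, and the part of this in the difference was not tested.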

How the results depend on the processing

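Precision was limited by 2 libraries a group and by depth, since Tlr4, Tlr7, Myd88 and Cd180 rest on 0 to 28 UMIs in the uninjured retina libraries. In retina, Cd180 and Ly86 were the 2 of the 7 genes called in the main test and in each of the 6 other settings that kept all 4 libraries. The number of all genes called after crush in retina was 341 by DESeq2 and 1035 by limma on mean ln values, against 653, and the Cd14 effect was -0.081 by limma. For optic nerve after crush, 31 genes were called, against 76 by edgeR, 64 by DESeq2, 20 on log2(CPM + 10), 1 with no filter, 19 without the T-, oligodendrocyte- and endothelial-like cells, 12 without them on log2(CPM + 10), 1 after thinning and 9 with only these 2 groups. None of the 7 genes was called there in any of these. In that comparison Cd180 turned positive by edgeR (0.36) and DESeq2 (0.31), and Ly86 turned negative without those cells (-0.10). For the difference between tissues in the injury effect, 265 genes and 2 of the 7 were called, against 103 and 1 by edgeR, 107 and 1 by DESeq2, 113 and 1 on log2(CPM + 10), 29 and 0 with no filter, 154 and 0 without those cells, 48 and 1 without them on log2(CPM + 10), and 13 and 0 after thinning. Between uninjured tissues 563 genes were called, against 158 by edgeR, 155 by DESeq2, 367 with no filter, 366 without those cells, 165 without them on log2(CPM + 10), 199 with only these groups and 82 after thinning, where 1 of the 7 was called in place of 3. Between injured tissues 704 were called, against 458 by edgeR, 256 by DESeq2, 110 on log2(CPM + 10), 440 with no filter, 40 without those cells on log2(CPM + 10), 1394 with only these groups and 15 after thinning. In that comparison 0 of the 7 were called after thinning and 0 without those cells on log2(CPM + 10), Cd180 turned positive by edgeR (0.16) and DESeq2 (0.12), and Ly86 turned negative without those cells (-0.13). The cause was not tested.

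Leaving out 1 library at a time, with the lone library of a group assumed to vary like the others, gave 415 to 699 genes after crush in retina (2 to 3 of the 7), 8 to 52 after crush in optic nerve (0 of the 7), 50 to 681 for the difference between tissues (0 to 2), 221 to 1211 between uninjured tissues (2 to 3) and 116 to 1146 between injured tissues (0 to 2). In retina the log2 fold change ran from -2.58 to -1.92 for Cd180, -2.37 to -2.04 for Ly86, -1.57 to -0.48 for Tlr2, -0.56 to 8.94 for Tlr7 and -0.30 to 7.44 for Myd88, where the 2 highest values set the pools against a library with 0 UMIs and are no measure of size. In optic nerve the effect ran from -0.12 to 0.040 for Cd180 and -0.11 to 0.42 for Ly86, and between injured tissues from -0.097 to 0.062 for Cd180 and -0.024 to 0.50 for Ly86. No paired analysis was possible because the table joins injured retina samples 1 with 2 and 3 with 4, and injured and uninjured samples of a tissue share no number.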
